A study of Drosophila melanogaster with 12 samples.

Results

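The aminoacyl-tRNA synthetase genes of the Drosophila larval fat body were compared between libraries of control larvae and of larvae with RNAi against TFAM. Members were taken by gene symbol: the name of an amino acid followed by RS, with the ending -m for the enzymes of mitochondria, together with alpha-PheRS and beta-PheRS. The rule found 35 genes of 17139, of which 20 were cytosolic and 15 mitochondrial by name. All 35 genes passed the filter on low values, and their 66 RefSeq transcripts are described as well. Control larvae carried the driver r4-Gal4 crossed to wild type (r4-Gal4>WT), and TFAM RNAi larvae carried r4-Gal4 with an RNAi construct against TFAM (r4-Gal4>TFAM RNAi). Both groups therefore shared the driver, which expresses Gal4 mainly in the larval fat body, and other cells of the dissected tissue need not have received the construct. Fat bodies were taken 96 hours after egg laying, and each group had 6 libraries.

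Each aminoacyl-tRNA synthetase joins an amino acid to its tRNAs, and the charged tRNAs deliver amino acids to the ribosome. Cytosolic and mitochondrial protein synthesis use separate tRNAs, and the mitochondrial synthetases are encoded in the nucleus, made in the cytosol and imported. Mitochondrial tRNAs themselves are transcribed from mitochondrial DNA, which TFAM packages and helps to transcribe. The fat body, the storage and endocrine organ of the larva, makes large amounts of secreted protein in the third larval stage.

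Expression was given in TPM, a transcript abundance scaled by transcript length that sums to the same total in every library. TFAM itself had 78.5 TPM in the lowest control library, with a median of 93.6 and a highest value of 101.1, against 22.1, 24.2 and 26.9 TPM in TFAM RNAi. Its log2 fold change was -1.88 (SE 0.077, n = 6 per group, limma adjusted p = 5.2e-09), and the groups did not overlap. Libraries had 8684 to 10325 genes at 1 TPM or more, and Pearson correlations of log2 levels across genes were 0.905 to 0.980 within control and 0.932 to 0.984 within TFAM RNAi. Read depth cannot be recovered from TPM, and intervals for counting error are therefore not given. The labels do not say whether replicates came from separate animals or cultures, and the p-values refer to the spread among these samples, part of which may be technical. In whole tissue, fewer cells of a type and less RNA per cell cannot be told apart.

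Cytosolic synthetase transcripts were more abundant than mitochondrial ones in the control fat body. The median over genes of the control mean was 77.5 TPM for the 20 cytosolic genes and 15.2 TPM for the 15 mitochondrial genes. Only PheRS-m and SerRS-m, 2 of 15 mitochondrial genes, had a control mean above that of the lowest cytosolic gene. The synthetases together held 0.181 to 0.239% of all TPM in a library.

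AspRS, which charges tRNA with aspartate, had the highest level, with control libraries at 190.0 to 254 TPM around a median of 225 and TFAM RNAi libraries at 236 to 268 around 247. SerRS followed, with a lowest, median and highest of 132, 150.3 and 174 TPM in control and 142, 149 and 169.9 TPM in TFAM RNAi. AsnRS had 132, 142 and 159 TPM in control and 131, 142 and 155 TPM in TFAM RNAi. The TFAM RNAi libraries of AspRS, SerRS and AsnRS lay within or close to the control range. HisRS stood between SerRS and AsnRS by control mean, and all its TFAM RNAi libraries lay below its controls, as given further down. In order of control mean, the cytosolic genes ran AspRS, SerRS, HisRS, AsnRS, ThrRS, TyrRS, AlaRS, alpha-PheRS, GlyRS, LysRS, beta-PheRS, TrpRS, ArgRS, IleRS, GlnRS, LeuRS, GluProRS, ValRS, MetRS and CysRS. The control ranges of neighbours in this order overlapped in 17 of 19 cases, the exceptions being AspRS above SerRS and ThrRS above TyrRS. At the low end, ValRS had 26.6, 32.9 and 42.6 TPM in control and 28.8, 45.1 and 56.9 TPM in TFAM RNAi. MetRS had 26.3, 30.4 and 36.0 TPM in control and 23.2, 36.4 and 43.3 TPM in TFAM RNAi. For ValRS and MetRS the TFAM RNAi libraries spread more widely than the controls. The alpha and beta subunits of cytosolic PheRS, which form 1 enzyme, had control medians of 88.9 and 76.3 TPM.

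Among the mitochondrial genes, PheRS-m was highest, at 36.1, 42.4 and 45.2 TPM in control and 44.3, 45.2 and 47.8 TPM in TFAM RNAi. It was followed by SerRS-m, TyrRS-m, TrpRS-m, AspRS-m, LeuRS-m, AlaRS-m, CysRS-m, MetRS-m, ProRS-m, AsnRS-m, ArgRS-m, ValRS-m, GluRS-m and IleRS-m. Control ranges of neighbours overlapped in 13 of 14 cases, and SerRS-m lay above TyrRS-m without overlap. TrpRS-m varied widely in both groups, with 15.6, 24.7 and 32.9 TPM in control and 14.0, 27.5 and 35.4 TPM in TFAM RNAi. The 3 genes with the lowest control means were ValRS-m, GluRS-m and IleRS-m. ValRS-m had 4.65, 6.536 and 10.2 TPM in control against 4.11, 7.28 and 8.86 TPM in TFAM RNAi. GluRS-m had 5.63, 6.80 and 7.13 TPM against 5.78, 6.72 and 7.73 TPM. IleRS-m had 4.93, 6.04 and 7.09 TPM against 3.94, 5.39 and 6.87 TPM. In each of these 3 genes the groups overlapped.

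**Figure D1:**
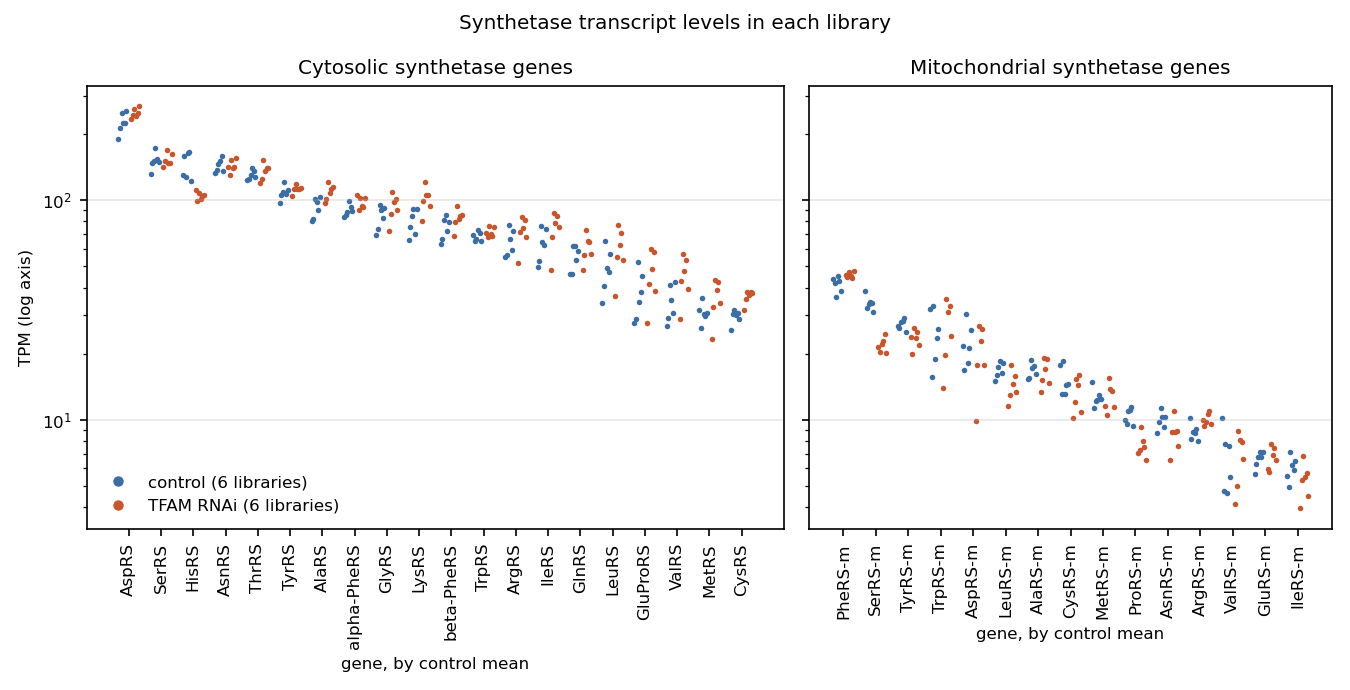
TPM on a log axis for the 20 cytosolic and 15 mitochondrial synthetase genes, ordered by control mean, with 1 point per library (6 control, 6 TFAM RNAi). The cytosolic genes reach from AspRS, with a control median of 225 TPM, down to CysRS at 30.1 TPM, and most mitochondrial genes lie below that range; SerRS-m, ProRS-m and HisRS are the genes whose groups do not overlap.

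The comparison of the genotypes asks whether nuclear genes for tRNA charging changed when the fat body had less TFAM transcript. Of the 35 synthetase genes, 4 changed: SerRS-m, ProRS-m and HisRS fell, and CysRS rose. Among all 9951 tested genes 5.75% were called higher and 13.8% lower at an adjusted p under 0.05 (limma, two-sided, Benjamini-Hochberg), which is 572 and 1377 genes, beside 1 synthetase gene called higher and 3 called lower of 35. With quantile normalization the split over all genes was 961 higher (9.66%) and 1075 lower (10.8%), beside 14 cytosolic genes and 1 mitochondrial gene called higher and 1 of each class called lower. All libraries of 1 group lay beyond those of the other in 3 synthetase genes, all lower in TFAM RNAi, and in none was TFAM RNAi higher. Over all tested genes, 9.76% were lower and 3.56% higher without overlap.

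The mitochondrial synthetases gave 2 falls, no call in the other direction, and 13 genes that did not pass the test. The 2 falls of 15 genes are near the share of 13.8% called lower over all tested genes, where 5.75% were called higher. SerRS-m, the enzyme that charges both mitochondrial serine tRNAs, changed most. It had 30.8, 33.8 and 38.4 TPM (lowest, median, highest) in control and 20.2, 21.8 and 24.7 TPM in TFAM RNAi, so that every TFAM RNAi library lay below every control. The log2 fold change of SerRS-m on the log2(TPM + 1) scale was -0.60 (SE 0.074, n = 6 per group, limma adjusted p = 5.9e-05). ProRS-m, the mitochondrial prolyl enzyme, had 9.34, 10.4 and 11.5 TPM in control and 6.56, 7.38 and 9.28 TPM in TFAM RNAi, again without overlap. Its log2 fold change was -0.41 (SE 0.097, limma adjusted p = 0.0089). With quantile normalization the value was -0.38 and the adjusted p 0.061, which ends that call.

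The remaining mitochondrial genes had log2 fold changes from -0.24 for LeuRS-m to 0.17 for ArgRS-m. LeuRS-m had 4 of 6 TFAM RNAi libraries below the lowest control (14.9, 16.8 and 18.6 TPM against 11.5, 13.9 and 17.7 TPM, limma adjusted p = 0.16). TyrRS-m had the same pattern, with 25.0, 27.3 and 28.9 TPM in control and 19.99, 23.8 and 26.1 TPM in TFAM RNAi. Its log2 fold change of -0.21 (SE 0.076) had an adjusted p of 0.083 by limma and of 0.046 by an exact rank-sum test over all genes. CysRS-m at -0.21, AsnRS-m at -0.20, AspRS-m at -0.18 and IleRS-m at -0.16 had negative values that did not pass the test, with limma adjusted p from 0.29 to 0.66. AlaRS-m at -0.03, MetRS-m at 0.00, GluRS-m at 0.01, ValRS-m at 0.02 and TrpRS-m at 0.05 were near 0. The 95% interval of MetRS-m ran from -0.23 to 0.23 and that of TrpRS-m from -0.47 to 0.58, so the precision differed between genes. PheRS-m had a value of 0.14 (SE 0.065, limma adjusted p = 0.16), with 3 of 6 TFAM RNAi libraries above the highest control. The median over the 15 genes was -0.16, against 0.01 over all tested genes, and 9 of the 15 values were negative. However, with array weights the class median was 0.02, against 0.09 over all tested genes. Without TFAM RNAi replicate 3 the class median was 0.00, against 0.07 over all tested genes.

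The cytosolic synthetases gave 1 rise, 1 fall and 18 genes that did not pass the test. Over all tested genes 5.75% were called higher and 13.8% lower, so neither count of 20 genes exceeds its share. HisRS, the histidyl enzyme, had 122.6, 145 and 166 TPM in control and 99.6, 105 and 112 TPM in TFAM RNAi, with no overlap between the groups. Its log2 fold change was -0.45 (SE 0.085, n = 6 per group, limma adjusted p = 0.0021). CysRS, the cysteinyl enzyme and the least abundant cytosolic synthetase in control, had 25.7, 30.1 and 31.7 TPM in control and 31.7, 37.3 and 38.3 TPM in TFAM RNAi. There 5 of 6 TFAM RNAi libraries exceeded the highest control and the last lay just below it. The log2 fold change of CysRS was 0.30 (SE 0.072, limma adjusted p = 0.010). Median-ratio scaling ended both calls, with adjusted p-values of 0.093 for HisRS and 0.085 for CysRS, while the fold changes were -0.44 and 0.31.

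In this fit HisRS had a negative value and the other 19 of 20 were positive, although AsnRS and SerRS, both near 0, turned negative with array weights and in some other alternatives. The median was 0.15 over the class against 0.01 over all tested genes. LysRS had 65.8, 80.3 and 91.6 TPM in control and 80.0, 102 and 120.9 TPM in TFAM RNAi, with 5 of 6 TFAM RNAi libraries above every control. LysRS had a log2 fold change of 0.33 (SE 0.11, limma adjusted p = 0.054). AlaRS had 80.3, 93.8 and 103 TPM in control and 97.3, 110.4 and 121 TPM in TFAM RNAi, a log2 fold change of 0.24 (SE 0.082, limma adjusted p = 0.060). ValRS had the highest value in the class, 0.37, with a wide error (SE 0.17, limma adjusted p = 0.17). LeuRS at 0.27, GluProRS at 0.26, IleRS at 0.21 and MetRS at 0.19 had adjusted p-values of 0.40 to 0.46 by limma. GluProRS is the fused enzyme that charges both glutamate and proline tRNAs, and its 95% interval ran from -0.18 to 0.71. ArgRS, AspRS, GlnRS, GlyRS, beta-PheRS and alpha-PheRS lay between 0.12 and 0.15. TrpRS at 0.07, ThrRS and TyrRS at 0.05, SerRS at 0.02 and AsnRS at 0.00 lay closest to 0, and the 95% interval of SerRS ran from -0.13 to 0.17.

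The number of cytosolic genes called depended on how libraries were scaled and weighted. With quantile normalization 14 of 20 cytosolic genes were called higher, beside 9.66% of all tested genes. Array weights gave 10 of 20 beside 26.5%, the fit without TFAM RNAi replicate 3 gave 5 beside 7.52%, and median-ratio scaling gave 0 beside 5.36%. The median over the class was positive under each of these settings, from 0.16 with median-ratio scaling to 0.37 with quantile normalization. Over all tested genes the median was 0.02 and 0.05 in those fits, and 0.09 with array weights. Without the 4 libraries richest in other-tissue markers, described further down, the class median was 0.14. In that fit the median over all tested genes was 0.11, so the class lay close to all genes.

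**Figure D2:**
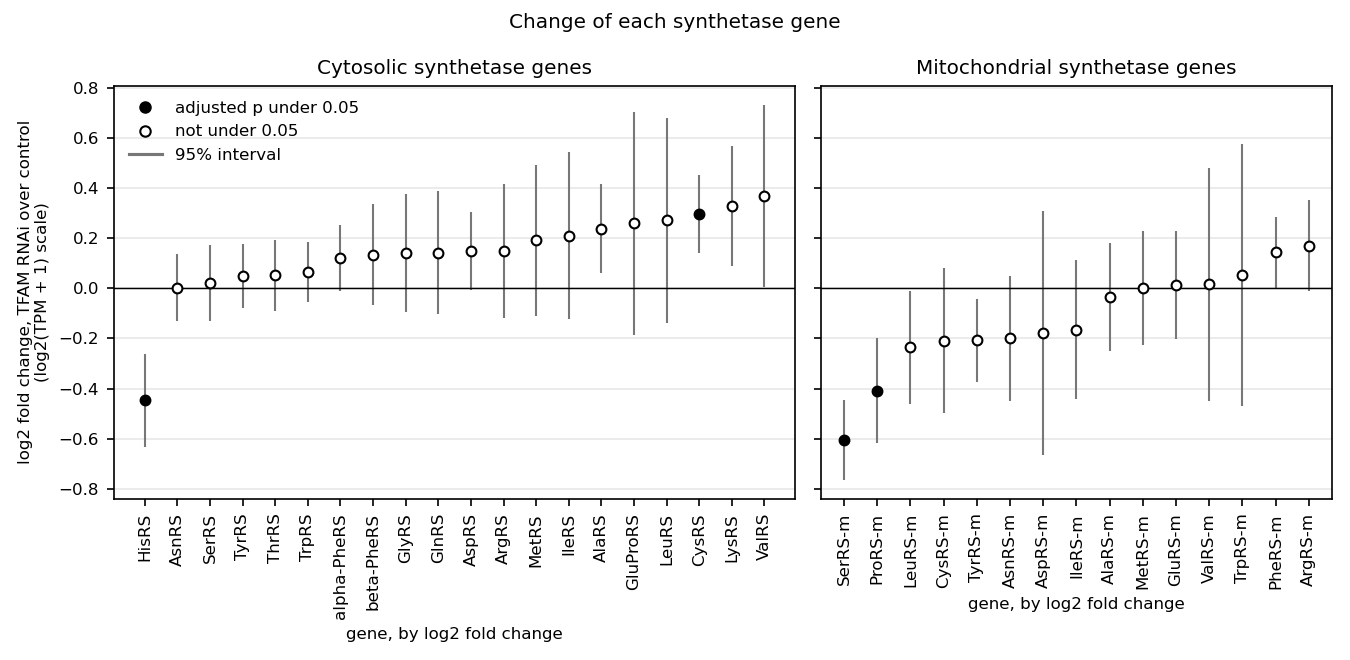
Log2 fold change (log2(TPM + 1) scale, TFAM RNAi over control) of each synthetase gene, with 95% intervals from limma; filled points have an adjusted p under 0.05. In the cytosolic class HisRS at -0.45 stands below 19 genes with positive values, and in the mitochondrial class SerRS-m at -0.60 and ProRS-m at -0.41 are the lowest.

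Summed over genes, the cytosolic class had 1535, 1804 and 1885 TPM (lowest, median, highest) in control and 1647, 1902 and 2107 TPM in TFAM RNAi. The mitochondrial class had 232, 258 and 280.3 TPM in control and 199, 238 and 279 TPM in TFAM RNAi. The groups overlapped in both sums. Within a library, the mitochondrial sum was 13.5, 14.4 and 18.0% of the cytosolic sum in control and 11.7, 12.7 and 13.6% in TFAM RNAi. For this ratio, which no linear scaling of a library alters, 5 of 6 TFAM RNAi libraries lay below the lowest control.

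The same ratio was taken for each amino acid that has both a cytosolic and a mitochondrial gene, giving 15 pairs, with GluProRS as the counterpart of both GluRS-m and ProRS-m and alpha-PheRS as that of PheRS-m. In control the median ratio ran from 6.94% for AsnRS-m against AsnRS to 48.9% for CysRS-m against CysRS. The mean ratio was lower in TFAM RNAi in 12 pairs and higher in 3. In 3 pairs all TFAM RNAi libraries lay below all controls. SerRS-m was 19.7, 21.9 and 29.2% of SerRS in control and 12.5, 14.3 and 16.7% in TFAM RNAi. CysRS-m was 43.4, 48.9 and 68.9% of CysRS in control and 28.8, 36.4 and 41.6% in TFAM RNAi, where CysRS had risen and CysRS-m had a negative value that did not pass the test. IleRS-m was 8.83, 9.39 and 11.1% of IleRS in control and 5.97, 7.37 and 8.21% in TFAM RNAi, although neither gene was called by itself. ProRS-m against GluProRS had 5 of 6 TFAM RNAi libraries below the lowest control, at 20.8, 31.0 and 36.2% against 12.8, 16.7 and 25.4%. LeuRS-m against LeuRS did so as well, at 26.7, 36.1 and 44.1% against 22.1, 23.2 and 31.4%. The mean ratios of PheRS-m, TrpRS-m and ArgRS-m to their counterparts were slightly higher in TFAM RNAi, and these groups overlapped. No test was made of these ratios, and the 2 genes of a pair differ in transcript length. The share of other gene pairs with such a separation is not given here, so the counts of pairs have no background beside them.

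**Figure D3:**
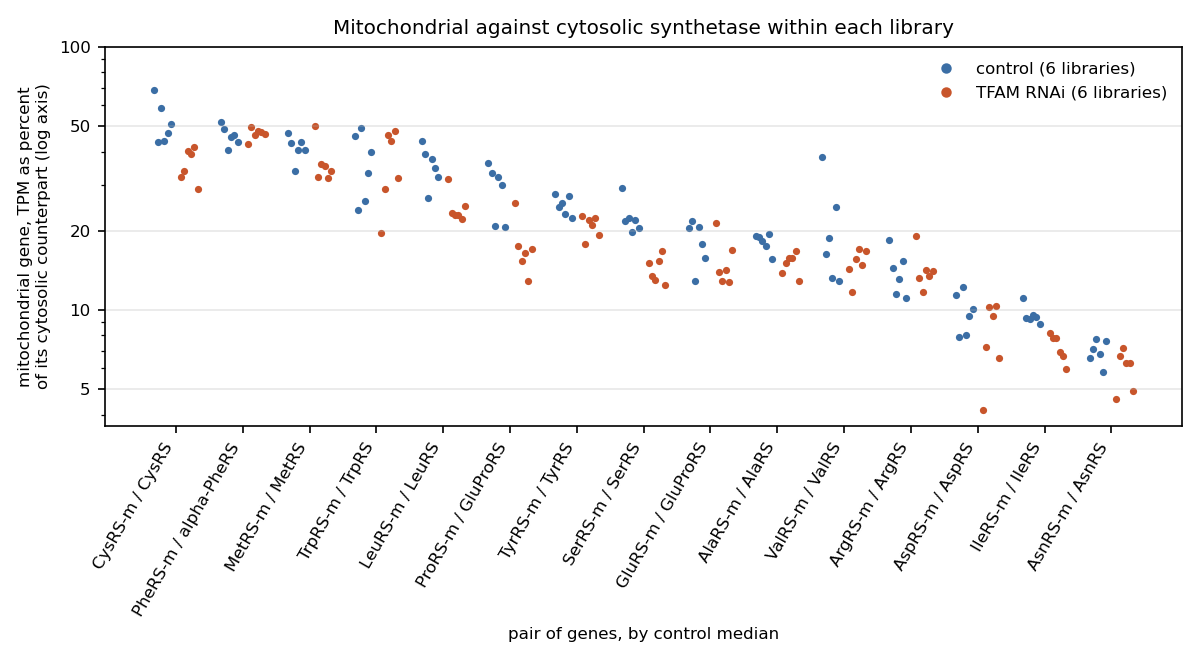
Each mitochondrial synthetase gene as a percent of the TPM of its cytosolic counterpart within the same library, on a log axis, with 1 point per library (6 control, 6 TFAM RNAi) and pairs ordered by control median. The TFAM RNAi points lie wholly below the control points for CysRS-m, SerRS-m and IleRS-m, and the groups overlap in the other 12 pairs.

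Glutamine, glycine, histidine, lysine and threonine have no -m gene among the members. In human cells the glycyl and lysyl synthetase genes each make both a cytosolic and a mitochondrial enzyme through different coding starts. In the Ensembl annotation of the fly genome (BDGP6.54), 5 of 20 cytosolic genes had transcripts with more than 1 coding start: GlyRS, HisRS, LysRS, ThrRS and GluProRS. Each of HisRS and ThrRS had 4 annotated transcripts with 2 coding starts. Among the mitochondrial genes AspRS-m alone, 1 of 15, had more than 1. Which RefSeq transcript uses which start was not analysed here, so no transcript below is assigned to a compartment.

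In ThrRS and AsnRS single transcripts moved while the gene sums moved little. Of 66 member transcripts 61 were tested, 3 were called higher and 6 lower, beside 5.47% higher and 11.8% lower among all 15248 tested transcripts. Of the 35 genes, 20 had more than 1 transcript. How reads were divided among transcripts of a gene rests on the authors' quantification, and such transcripts share most of their bases.

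ThrRS, the threonyl enzyme, had opposite changes in 2 of its 4 transcripts. NM_164995 had 46.9, 58.5 and 65.0 TPM (lowest, median, highest) in control and 76.7, 89.6 and 97.1 TPM in TFAM RNAi. It rose by a log2 fold change of 0.59 (SE 0.090, n = 6 per group, limma adjusted p = 0.00041 over transcripts), without overlap. NM_080100 had 27.7, 40.4 and 43.7 TPM in control and 4.19, 19.0 and 21.9 TPM in TFAM RNAi, again without overlap. It fell by 1.22 on the log2 scale (SE 0.32, limma adjusted p = 0.018), and the value of 4.19 belonged to TFAM RNAi replicate 4. Without that library the log2 fold change was -0.89 (limma adjusted p = 0.00072). The share of the ThrRS sum held by NM_080100 was 22.2, 29.2 and 34.4% in control and 3.36, 14.0 and 15.6% in TFAM RNAi. The share held by NM_164995 was 37.8, 45.5 and 47.9% in control and 58.4, 64.1 and 72.6% in TFAM RNAi. The ThrRS sum itself had 124, 129 and 140.7 TPM in control and 119, 138 and 152 TPM in TFAM RNAi (log2 fold change 0.05, SE 0.066, limma adjusted p = 0.66).

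In HisRS the fall was steeper in the lesser of its 2 main transcripts. NM_001272756 had 26.7, 34.4 and 44.2 TPM in control and 14.5, 15.3 and 16.1 TPM in TFAM RNAi, a log2 fold change of -1.14 (SE 0.11, n = 6 per group, limma adjusted p = 7.6e-06). NM_167624, the main transcript, had 93.9, 106.8 and 128.8 TPM in control and 84.2, 89.5 and 95.6 TPM in TFAM RNAi, with a log2 fold change of -0.27 that did not pass the test (SE 0.091, limma adjusted p = 0.063). The first made up 20.9, 25.3 and 26.6% of the HisRS sum in control and 14.1, 14.3 and 15.3% in TFAM RNAi, without overlap. The other HisRS transcripts, NM_001272757 and NM_133077, stayed below 1 TPM and were not tested.

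AsnRS, whose sum had a log2 fold change of 0.00, had a minor transcript that fell. NM_001273632 had 3.51, 4.31 and 5.73 TPM in control and 1.60, 1.99 and 2.58 TPM in TFAM RNAi (log2 fold change -0.84, SE 0.14, n = 6 per group, limma adjusted p = 0.00065). It made up 2.54 to 3.62% of the sum in control and 1.05 to 1.85% in TFAM RNAi. In the annotation both AsnRS transcripts have the same coding start and end. Shares of a gene's sum separated the groups in HisRS, ThrRS and AsnRS, and in no other of the 20 genes with several transcripts. Of all 5420 tested genes with several transcripts, 350 (6.46%) had such a share.

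Both SerRS-m transcripts fell. NM_079641 had 26.5, 28.1 and 33.8 TPM in control and 17.8, 19.1 and 22.4 TPM in TFAM RNAi (log2 fold change -0.54, SE 0.085, n = 6 per group, limma adjusted p = 0.00054). NM_001275670 had 4.33, 4.87 and 6.52 TPM in control and 1.96, 2.37 and 3.42 TPM in TFAM RNAi (log2 fold change -0.81, SE 0.14, limma adjusted p = 0.0011). The main ProRS-m transcript, NM_139480, had 8.91, 9.58 and 10.3 TPM in control and 6.30, 6.85 and 8.85 TPM in TFAM RNAi (log2 fold change -0.39, SE 0.10, limma adjusted p = 0.015). CysRS has a single transcript, NM_137243, whose change is that of the gene (limma adjusted p = 0.016 over transcripts). The main LysRS transcript, NM_132345, had 57.6, 69.3 and 80.3 TPM in control and 70.1, 92.4 and 110.8 TPM in TFAM RNAi (log2 fold change 0.40, SE 0.11, limma adjusted p = 0.029). Leaving out single libraries ended the LysRS call in 8 cases, namely replicates 2, 3 and 7 of control and 4 to 8 of TFAM RNAi, with adjusted p up to 0.070.

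**Figure D4:**
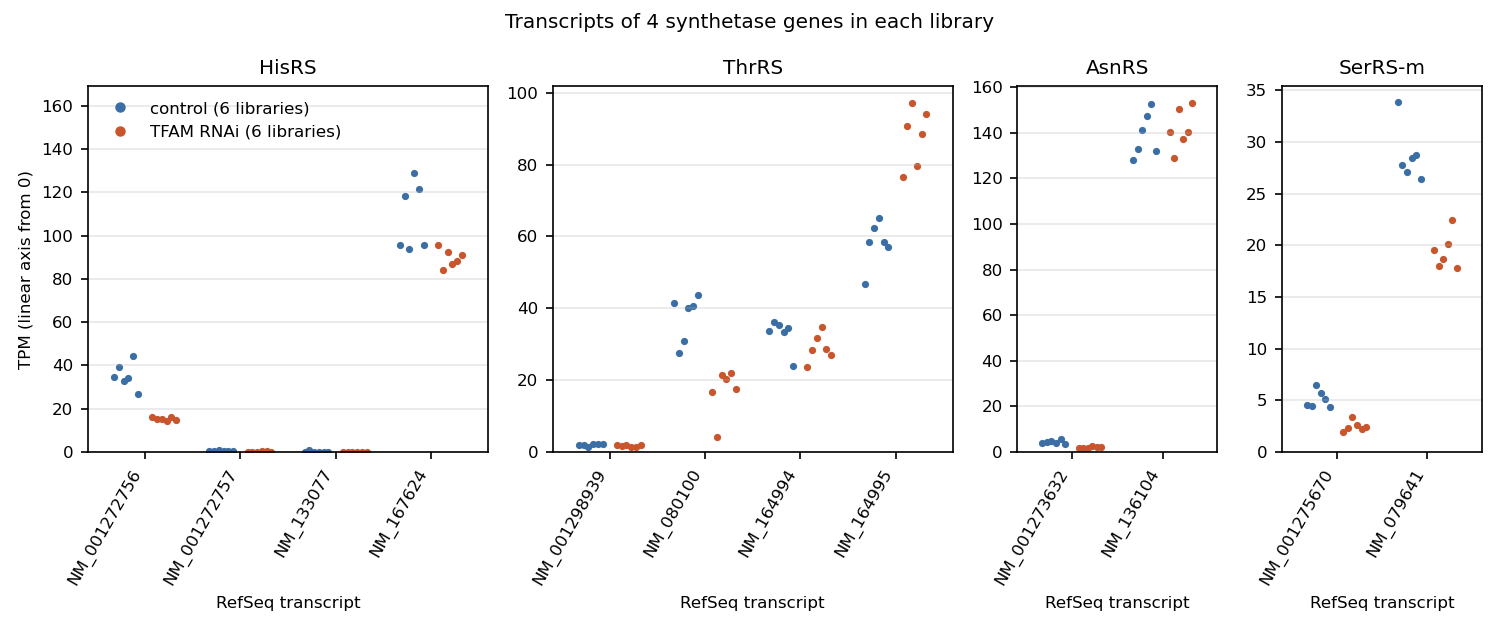
TPM on linear axes from 0 for each RefSeq transcript of HisRS, ThrRS, AsnRS and SerRS-m, with 1 point per library (6 control, 6 TFAM RNAi). In ThrRS the transcript NM_080100 lies lower and NM_164995 higher in TFAM RNAi, with medians of 19.0 and 89.6 TPM against 40.4 and 58.5 TPM in control; in HisRS the separation is widest for NM_001272756.

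The authors' own tests list 1 of the 35 synthetase genes and 5 of their 66 transcripts. Over all features they list 1561 genes and 1758 transcripts, where TPM were deposited for 17139 genes and 34213 transcripts. In the authors' deposited table of genes, SerRS-m (q = 0.0017) is the 1 synthetase among 1561 listed genes. In the authors' deposited table of listed transcripts, 5 of 1758 belong to synthetases: NM_001272756 of HisRS, NM_164995 of ThrRS, NM_001273632 of AsnRS and both transcripts of SerRS-m. In the authors' deposited Wald table, whose coefficient is a natural log, NM_001272756 has -0.82 (SE 0.12, q = 1.2e-09) and NM_164995 has 0.42 (SE 0.12, q = 0.0053). In the authors' deposited Wald table NM_080100 of ThrRS has -0.89 (SE 0.34), with a q of 0.085. In the authors' deposited Wald table the q is 0.18 for the CysRS transcript, 0.19 for NM_139480 of ProRS-m and 0.036 for NM_132345 of LysRS.

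Exons of some members overlap those of neighbouring genes, and the strand setting of the authors' counting is not given in the sources used here. SerRS-m shares 13.9% of its exon bases with Nagk on the opposite strand, ProRS-m 2.97% with CG1246, and HisRS 8.91% with Bx on the same strand. In these libraries Nagk had a control median of 3.84 TPM, CG1246 of 4.57 TPM and Bx of 1.63 TPM, and their adjusted p-values were 0.35, 0.61 and 0.98 by limma. AspRS shares 63.9% of its exon bases with the antisense gene asRNA:CR45141, so its level may include reads of that gene. The part of these neighbours in the changes of the members was not tested.

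Long cytosolic synthetase genes had a higher median spread between libraries of a group than short ones. The SD within a group of log2(TPM + 1), averaged over both groups, had a median of 0.293 over the 6 cytosolic genes with a spliced length of at least 3000 bases and of 0.112 over the 14 shorter ones. The ranges of long cytosolic genes (0.136 to 0.381) and short ones (0.071 to 0.220) overlapped. For the mitochondrial genes the medians were 0.160 and 0.131. Their ranges, 0.148 to 0.404 for long genes and 0.081 to 0.449 for short genes, overlapped as well. Across the 20 cytosolic genes Spearman's rho between length and SD was 0.75, and across the 15 mitochondrial genes it was 0.38, as a description of genes that share the same libraries. GluProRS, the longest member at 5405 bases, had an SD of 0.381. TrpRS-m, at 2477 bases, had the highest SD of all, 0.449. Over 5129 other genes with at least 10 TPM, the slope of a library's deviation on log2 length ran from -0.17 to 0.18 per doubling of length in control and from -0.25 to 0.15 in TFAM RNAi. For these slopes deviations were taken from each gene's mean over all 12 libraries, so a group difference that goes with length is part of them. The lowest slope belonged to TFAM RNAi replicate 3, where the 11 synthetase genes of at least 3000 bases had a median deviation of -0.57 from their group mean and the 24 shorter ones of -0.13. Slopes were negative in 4 of 6 control libraries and in 2 of 6 TFAM RNAi libraries.

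With this slope as a covariate, an alternative chosen after seeing the data, 4 cytosolic genes were called higher (AlaRS, CysRS, LysRS and ValRS) and HisRS lower. In that fit 5 mitochondrial genes were called lower (AsnRS-m, AspRS-m, LeuRS-m, ProRS-m and SerRS-m) and PheRS-m higher, beside 774 higher and 1771 lower over all genes. The log2 fold changes of the added genes in that fit were 0.20 for AlaRS, 0.27 for LysRS, 0.26 for ValRS, -0.26 for AsnRS-m, -0.32 for AspRS-m, -0.28 for LeuRS-m and 0.16 for PheRS-m. Whether the slope itself belongs to the treatment or to the preparation of the libraries was not tested.

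**Figure D5:**
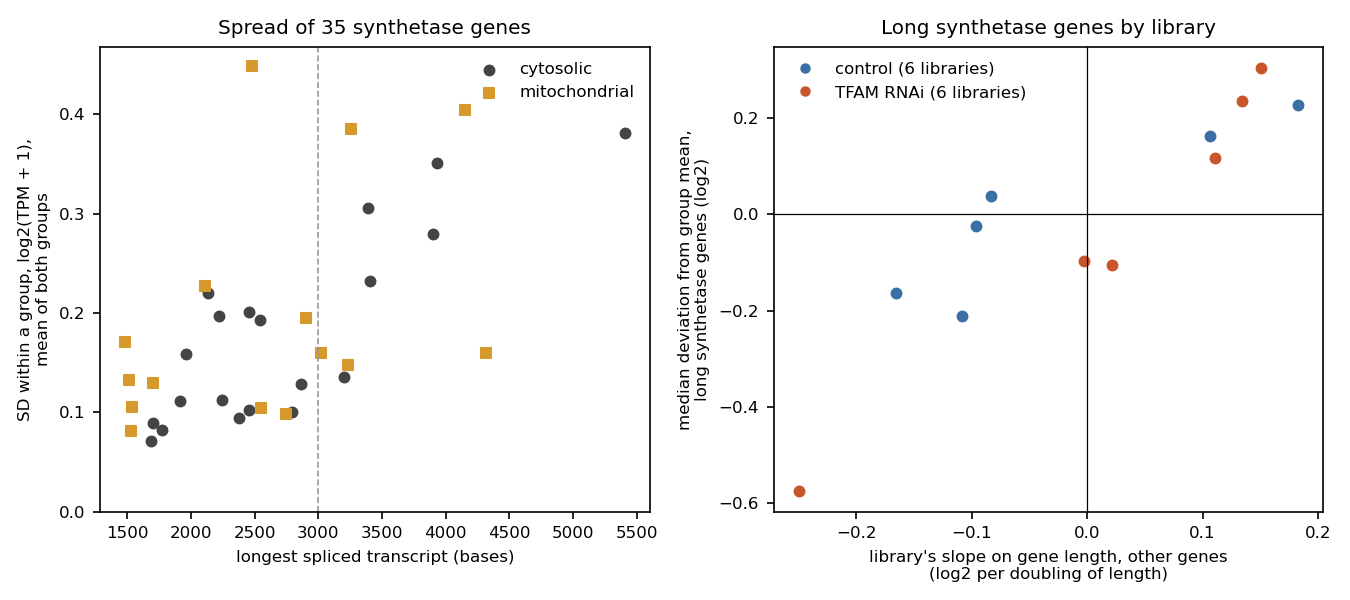
Left, SD within a group of log2(TPM + 1), mean of both groups, against the spliced length of each of the 35 synthetase genes, with a dashed line at 3000 bases. Right, for each of the 12 libraries, the median deviation of the 11 long synthetase genes from their group mean against the slope of 5129 other genes on length. The slope uses deviations from each gene's mean over all 12 libraries. TFAM RNAi replicate 3 lies lowest, at -0.57.

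Genes that work with the synthetases were taken from lists, and their calls are given beside the shares of 5.75% higher and 13.8% lower over all genes. In animal mitochondria glutaminyl-tRNA is made by charging with glutamate followed by amidation, for which GatA, GatB and GatC form the enzyme. Of these 3 genes 2 fell and none rose. GatA had 17.0, 18.4 and 20.3 TPM in control and 11.5, 13.5 and 14.6 TPM in TFAM RNAi, without overlap (log2 fold change -0.44, SE 0.078, n = 6 per group, limma adjusted p = 0.0012). GatC had 43.7, 48.5 and 52.8 TPM in control and 18.0, 20.1 and 22.1 TPM in TFAM RNAi (log2 fold change -1.21, SE 0.072, limma adjusted p = 1.2e-07), but its values are identical in all libraries to those of PolG2, a subunit of the mitochondrial DNA polymerase, and may belong to either gene. GatB had 10.7, 12.1 and 13.4 TPM in control and 10.4, 11.3 and 13.0 TPM in TFAM RNAi and did not pass the test (limma adjusted p = 0.55).

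Of 4 proteins associated with synthetases, Slimp fell and the scaffold genes AIMP1, AIMP2 and AIMP3 did not pass the test. Slimp, a fly paralogue of SerRS-m that does not charge tRNA, had 12.4, 13.6 and 14.4 TPM in control and 9.62, 10.9 and 12.0 TPM in TFAM RNAi, without overlap. Its log2 fold change was -0.30 (SE 0.081, n = 6 per group, limma adjusted p = 0.019). AIMP1, AIMP2 and AIMP3, which hold cytosolic synthetases in a complex, had values of -0.01, 0.14 and -0.08. Of 4 genes that process mitochondrial tRNA, none was called and scu, a subunit of mitochondrial RNase P, came closest (log2 fold change -0.29, limma adjusted p = 0.062). Of 9 mitochondrial translation factors 1 was called, mEFTs, the exchange factor of mitochondrial EF-Tu. It had 94.4, 105.9 and 110.3 TPM in control and 75.7, 84.7 and 99.2 TPM in TFAM RNAi (log2 fold change -0.28, SE 0.069, limma adjusted p = 0.011).

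In cytosolic translation, 2 of 7 elongation factors rose and none fell, and 1 of 31 initiation factors fell and none rose. eEF2, the translocation factor, had 1630, 1838 and 2105 TPM in control and 2176, 2648 and 2848 TPM in TFAM RNAi, without overlap (log2 fold change 0.50, SE 0.081, n = 6 per group, limma adjusted p = 0.00058). eEF5, which eases the formation of difficult peptide bonds, had 2992, 3015 and 3056 TPM in control and 3331, 3405 and 3527 TPM in TFAM RNAi (log2 fold change 0.18, SE 0.035, limma adjusted p = 0.0023). eIF3g1, a subunit of the initiation factor eIF3, had 176, 183 and 197 TPM in control and 153, 161 and 169 TPM in TFAM RNAi (log2 fold change -0.20, SE 0.046, limma adjusted p = 0.0080).

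ATF4, encoded by crc in the fly, is a transcription factor of the integrated stress response, and in mammals cytosolic synthetase genes are among its targets. Of 14 listed genes of this response 2 rose and 3 fell. crc itself had 379, 408.5 and 418 TPM in control and 316, 378 and 397 TPM in TFAM RNAi and did not pass the test (log2 fold change -0.14, SE 0.058, n = 6 per group, limma adjusted p = 0.14). AsnS, which makes asparagine, fell from 373, 444.2 and 529 TPM in control to 229, 243 and 282 TPM in TFAM RNAi, without overlap (log2 fold change -0.80, SE 0.091, limma adjusted p = 3.4e-05). P5cr-2, an enzyme of proline synthesis, fell from 56.2, 72.1 and 102 TPM to 17.8, 23.0 and 41.0 TPM (log2 fold change -1.51, SE 0.22, limma adjusted p = 0.00029). Sesn also fell (log2 fold change -0.65, limma adjusted p = 0.020), while Shmt rose (0.30, limma adjusted p = 0.021). The synthetases that use asparagine, AsnRS and AsnRS-m, are described above and had values of 0.00 and -0.20. Those that use proline, GluProRS and ProRS-m, had 0.26 and -0.41, and of these genes only ProRS-m was called. A link to AsnS or P5cr-2 was not tested.

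Markers of the fat body and of other tissues were summed per library as a check of the dissection. The 14 fat body markers, none at 0, summed to 41465, 51005 and 100967 TPM (lowest, median, highest) in control and 63954, 99189.9 and 111194 TPM in TFAM RNAi, and of 13 tested 4 were higher and 1 lower. In control, replicates 5 and 8 had 94042 and 100967 TPM, among the TFAM RNAi values, and the other 4 libraries had at most 53975 TPM. The part of this difference in the changes of the synthetase genes was not tested. The 98 markers of other tissues, none at 0 in all libraries, summed to 4270.3 to 15856 TPM in control and 3407.5 to 10385 TPM in TFAM RNAi, and of 74 tested 5 were higher and 2 lower. Markers of ring gland summed to 49.65 to 76.7 TPM in control and 3.74 to 23.7 TPM in TFAM RNAi without overlap, and those of hemocytes to 126.7 to 333 and 81.8 to 127.4 TPM. Single markers did not all follow these sums. Of 10 ring gland markers 3 were tested, with 1 called higher and 1 lower and a median log2 fold change of -0.66. Of 10 hemocyte markers 7 were tested, with 0 called higher and 1 lower and a median of 0.18. Without the 4 libraries richest in other-tissue markers (control replicates 2 and 3, TFAM RNAi replicates 3 and 4), an alternative chosen after seeing the data, the called synthetase genes were again SerRS-m, ProRS-m, HisRS and CysRS. The part of ring gland and hemocyte RNA in the results was not tested.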

How the data were processed

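RNA sequencing libraries of larval fat body were made with a directional kit from total RNA, per the labels' protocols. The authors deposited TPM for 34213 RefSeq transcripts, p-values and q-values of their likelihood ratio and Wald tests, and Wald coefficients on a natural log scale, as the deposited values show (slope 0.999 on natural-log differences over 1498 transcripts above 50 TPM). The submitters' processing notes name sleuth; the quantifier, its strand setting and the genome build are not given in the sources used here. By accession, 34056 transcripts (99.54%) were named from RefSeq (assembly Release 6 plus ISO1 MT), TPM were summed per gene, and no coordinates are printed.

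The 9951 genes whose mean over the 12 libraries reached 1 TPM were tested with limma 3.58.1 in R 4.3.3 (lmFit, then eBayes with a trend) on log2(TPM + 1) with genotype as the only term, two-sided, with Benjamini-Hochberg adjustment over all tested genes and a call at an adjusted p under 0.05. Fold changes divide TFAM RNAi by control on that scale, which understates changes of low genes; SE is moderated. Transcripts were tested in the same way. The script was tested on simulated data. Spliced lengths, coding starts and exon overlaps come from the Ensembl annotation BDGP6.54. The named genes are all members, with lowest, median and highest values for called genes and for the 3 highest and 3 lowest of each class, and up to 4 called genes of each list; promoter motifs were not analysed here. Members, lists and tests were chosen with earlier results of these data known. Values for genes near the threshold, and the neighbours that overlap members, were picked after their values were seen. The alternatives were other scalings, filters, pseudocounts, weights, a replicate block, an exact rank-sum test, each library left out, and those marked as chosen after seeing the data.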

Additional observations from a re-analysis of the deposited data

How the results depend on the processing

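SerRS-m was called lower under each gene-level alternative run, and without single libraries its log2 fold change ran from -0.64 to -0.57. Without single libraries HisRS ran from -0.49 to -0.40, ProRS-m from -0.46 to -0.37 and CysRS from 0.26 to 0.33, and all stayed called. The number of cytosolic genes called higher, 1 in the report, was 0 with median-ratio scaling, 14 with quantile normalization, 3 with a filter at 5 TPM, 10 with array weights, 4 with the length slope as covariate and 1 to 5 without single libraries. It was 2 without control replicate 5 or 6, 3 without control replicate 8 and 5 without TFAM RNAi replicate 3. Over all tested genes the shares called higher in these fits were, in that order, 5.28%, 5.38%, 5.73% and 7.52%. Cytosolic genes called lower numbered 0 with median-ratio scaling and 1 to 1 without single libraries. Mitochondrial genes called higher numbered 1 with quantile normalization, 1 with array weights, 1 with the covariate and 0 to 0 without single libraries, against 0 in the report. Mitochondrial genes called lower numbered 1 with quantile normalization, 3 with array weights and with the exact rank-sum test, 5 with the covariate and 2 to 2 without single libraries. The shares called lower over all tested genes were 10.8% with quantile normalization, 20.2% with array weights and 13.4% with the rank-sum test. Those called higher were 9.66% with quantile normalization and 26.5% with array weights. With median-ratio scaling 5.36% were higher and 11.5% lower. Over all genes, 961 were higher with quantile normalization, 2633 with array weights, 1344 with the replicate block, 1163 without the 4 libraries richest in other-tissue markers, and 474 to 798 without single libraries (1153 to 1426 lower). Higher calls made up 29.3% of all calls, 47.2% with quantile normalization, 56.6% with array weights and 53.5% with the block. The replicate block gave 1344 higher and 1168 lower genes, called AlaRS (adjusted p 0.047) and not CysRS (adjusted p 0.055), and left the calls of SerRS-m, ProRS-m and HisRS; deviations of same-numbered libraries from their group means correlated at -0.08 to 0.62 over 5 shared numbers, and 3 of 10 such libraries correlated best with their own number, so the numbers were not taken as a pairing. Member transcripts called numbered 5 higher and 10 lower with the covariate, and 2 to 4 higher and 6 to 7 lower without single libraries. The shares over all transcripts in these fits are not given here. Over all tested genes, 7.78% were called higher and 17.8% lower with the covariate, and 7.41% higher with the filter at 5 TPM. In the main fit the shares were 5.75% higher and 13.8% lower. The ProRS-m transcript was not called without the 4 libraries (adjusted p 0.063), nor the LysRS transcript without a filter (adjusted p 0.053). The causes were not tested.

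Genes near 0 changed sign. AlaRS-m was 0.0597 with quantile normalization, 0.0227 with array weights and 0.0036 without the 4 libraries. ValRS-m was -0.0037 with quantile normalization and -0.0477 with the covariate, and MetRS-m was -4.79e-05 with a pseudocount of 0.1 and -0.0156 with the covariate. AsnRS was -0.0531 with array weights, -0.0034 without the 4 libraries and -0.000462 with the covariate. SerRS was -0.0142 with array weights, -0.0123 with the replicate block and -0.0023 without the 4 libraries. AspRS-m was 0.0599 with array weights, GluRS-m -0.0198 and TrpRS-m -0.0709 with the covariate. Without single libraries the ranges were -0.0768 to 0.0183 for AlaRS-m, -0.0193 to 0.0322 for AsnRS, -0.2699 to 0.0024 for AspRS-m, -0.0247 to 0.0510 for GluRS-m, -0.0553 to 0.0497 for MetRS-m, -0.0170 to 0.0620 for SerRS, -0.0634 to 0.2136 for TrpRS-m and -0.0647 to 0.1318 for ValRS-m. The smallest exact rank-sum p of 6 against 6 libraries is 0.0022.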
